A study of Mus musculus with 6 samples.

Results

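The response of cultured muscle stem cells (MuSCs) to the peptide neurotensin (NT) was examined across all genes by comparing 2 RNA-seq libraries of NT-treated MuSCs with 2 libraries of MuSCs that had received DMSO, the solvent control. The libraries were chosen by their labels, and no measured value entered that choice. All 4 libraries came from wild-type (WT) C57BL/6 mice that were 8 weeks old, and the MuSCs had been purified by fluorescence-activated cell sorting and then cultured for 5 days. The labels give an NT dose of 100 nM, the methods of the paper a higher one. These 4 of the 6 libraries of the series were used, and 14060 of the 18943 genes of the deposited table, those with a mean value of at least 5 over the 4 libraries, were tested. The labels do not say whether the libraries of a group came from separate mice or cultures, so the p-values measure the spread between these libraries, which may be technical.

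NT is a short peptide known from brain and gut that acts through G protein-coupled receptors and through the sorting receptor sortilin. MuSCs are the PAX7-positive stem cells of skeletal muscle. Once activated they proliferate as myoblasts, and on leaving the cell cycle they switch on myogenin and the MEF2 factors, fuse, and build the sarcomere, the contractile unit in which thick filaments of myosin pull on thin filaments of actin.

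Library totals ran from 4214458 to 4600575, and between 17339 and 17678 genes had a value above 0. The values are whole numbers that behave as read counts that were scaled by a library-specific factor before rounding, with factors from 0.781 to 1.1458, which corresponds to between 4015164 and 5396233 reads on genes. At a value of 100, counting alone gave an error of between 8.84% and 10.7%. The NT libraries differed from each other by no more than sampling noise, with a mean chi-square of 0.962 per gene, against 1.45 for the DMSO libraries and between 38.9 and 42.1 for pairs of an NT and a DMSO library. The labels list the NT libraries as 2 samples and they were kept as such. Results with the pair counted as 1 sample are given below for some genes and lists only. The calls of Pecam1, Dcn, Ccne2, Crim1, Nt5e, Col14a1, Itgb7, Gm20658, U90926 and Sgk2 were also lost in that setting, and further list counts changed. In the 2 DMSO libraries the highest values of genes with at least 500 exonic bases were 0.892 and 1.00 per exonic base, in both for Acta1. How far that compresses the values of abundant, short transcripts was not tested.

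Of 6 markers of the MuSC lineage, 5 had values of at least 306 in every library and Chodl had values of 2, 7, 2 and 2. Pax7, which encodes the transcription factor that marks MuSCs, had values of 857 and 1070 with DMSO and 1653 and 1599 with NT, and Cdh15, encoding M-cadherin, had 1547 and 1746 with DMSO and 496 and 436 with NT. Markers of other cell types were examined as lists. The 3 endothelial markers with values summed to 22 and 11 with DMSO and 43 and 37 with NT. Kdr had 16 and 6 against 26 and 23 (1.22, adjusted p = 0.0655 by limma), and Pecam1 had 6 and 3 against 15 and 9 (1.26, adjusted p = 0.0489 by limma), a call that was lost with any 1 library left out (adjusted p from 0.117 to 0.272). The 3 macrophage and leukocyte markers summed to 35 and 34 against 28 and 27, and the 2 Schwann cell markers to 44 and 38 against 28 and 38. The 6 smooth muscle and pericyte markers summed to 1810 and 1877 with DMSO and 519 and 525 with NT, with Abcc9, which encodes a subunit of a potassium channel of muscle, Rgs5 and Pdgfrb called lower, and the 5 fibroadipogenic markers summed to 876 and 952 against 389 and 427, mostly through Gsn, which encodes gelsolin. Of these 5, Gsn, Col15a1 (80 and 82 against 0 and 1) and Dcn (9 and 17 against 0 and 0) were called lower. Dcn passed the filter only through the DMSO libraries and lost the call without NT replicate 1 or 2 (-3.75 each). Ly6a had 27 and 18 against 38 and 52 (0.98) and Pdgfra 20 and 30 against 44 and 37 (0.70). The fibroadipogenic list had 1 higher call with libraries scaled to equal totals or upper quartiles. The call of Abcc9 was lost without DMSO replicate 1 or 2 (adjusted p = 0.0614 and 0.0635 by limma). Myh11 and Kcnj8, which define smooth muscle and pericytes, had values of at most 4 and 1, and Pdgfra, which defines fibroadipogenic cells, of at most 44. The 3 adipocyte markers looked for were not analysed here. The part of such cells in the results was not tested, and in bulk RNA fewer cells of a type and less RNA per cell cannot be told apart.

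NT changed the transcriptome broadly and more often downwards. With limma and Benjamini-Hochberg adjustment, 2961 genes were called, 21.1% of those tested, with the adjusted p at or below 0.05 and a change of 2-fold or more. Of these, 979 (6.96%) were higher and 1982 (14.1%) lower with NT. At the adjusted p alone 8491 genes (60.4%) differed, 3932 (28%) higher and 4559 (32.4%) lower, so that 5530 genes differed by less than 2-fold. The values of both NT libraries lay above those of both DMSO libraries for 38.4% of the tested genes and below them for 42.5%. For a single gene an exact permutation test of 2 against 2 libraries cannot go below 0.333 (two-sided), and the adjusted p-values therefore rest on the spread pooled over genes.

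The decreases were larger as well as more frequent. The middle of the distribution was narrow, with a median log2 fold change of -0.02 and quartiles of -0.50 and 0.36, while the 5% and 95% points were -2.81 and 1.23. The median log2 fold change was -2.09 over the genes called lower and 1.46 over those called higher. A log2 fold change of at least 3 in size was reached by 636 genes called lower and 93 called higher, of at least 5 by 207 and 7, and of at least 8 by 29 genes, each of them lower. Genes called lower held 12.8% and 13.1% of the total value in the DMSO libraries and 3.24% and 3.21% in the NT libraries, and genes called higher held 1.52% and 1.42% against 4.30% and 4.46%. Fold changes are on the scale of log2(value + 1), which understates changes of genes with low values.

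**Figure D1:**
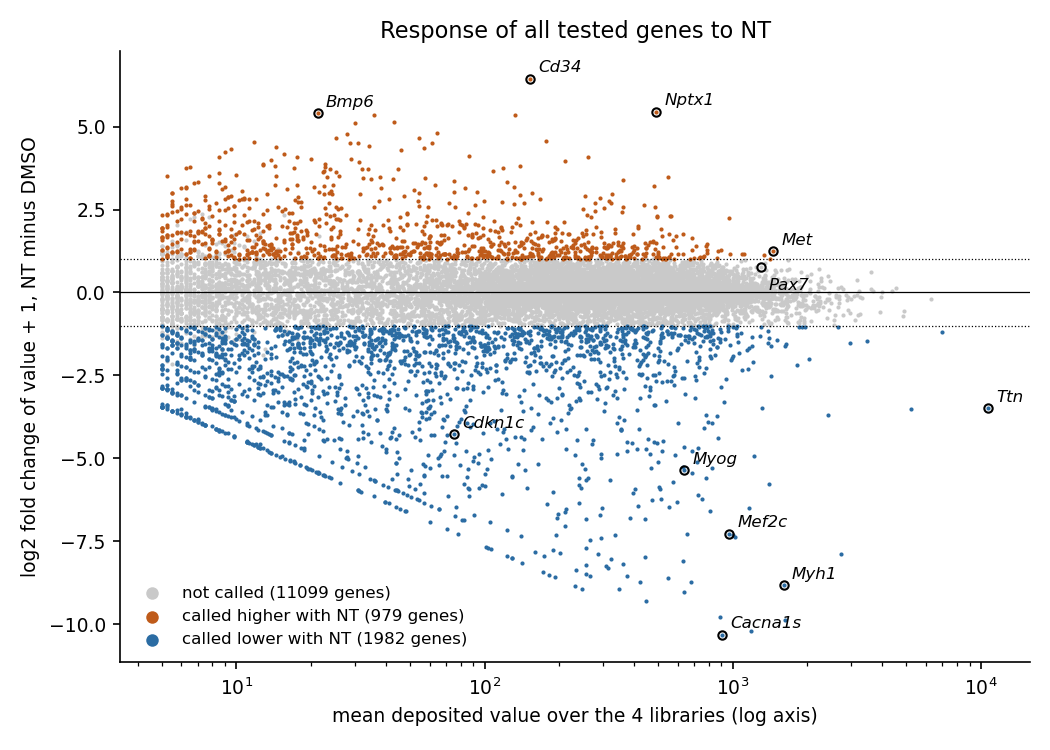
Log2 fold change of value + 1 (NT minus DMSO) against the mean deposited value over the 4 libraries (log axis), 1 point per tested gene, with 979 genes called higher and 1982 called lower in colour and dotted lines at 2-fold. The decreases reach -10.32 and the increases 6.45, and the slanting edge at the lower left is formed by genes with values of 0 in both NT libraries.

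Values of 0 in both libraries of a group occurred in both directions, more often with NT. Of the 18943 genes, 493 had a value of 0 in both NT libraries and more than 3 reads in the DMSO pair. Conversely, 276 had a value of 0 in both DMSO libraries and more than 3 reads in the NT pair. With more than 10 reads required the numbers were 208 and 35. At more than 3 reads, 131 and 9 were among the 14060 tested genes. These passed the filter only through the group in which they had reads. Trdn, which encodes triadin of the calcium release complex, had values of 441 and 487 in the DMSO libraries and of 0 in both NT libraries. It was at least 378-fold lower, counted against a floor of 3 reads over the NT pair. Csrp3, encoding muscle LIM protein, had 339 and 348 against 0 and 0 (at least 280-fold). In the opposite direction Bmp6, encoding a bone morphogenetic protein, had 0 and 0 with DMSO and 32 and 53 with NT (at least 26.6-fold higher).

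The share of called genes depended on the level. Among genes with a mean value from 5 to 20, 12.7% were called higher and 25.4% lower, and among those above 500 it was 1.61% and 6.95%. By annotated class, 78 of 260 lincRNA genes, 84 of 317 antisense genes and 14 of 268 processed pseudogenes (5.22%) were called lower, against 1680 of 12553 protein-coding genes (13.4%). Called higher were 33 of the lincRNA genes (12.7%), 16 of the antisense genes (5.05%), 9 of the processed pseudogenes (3.36%) and 850 of the protein-coding genes (6.77%). The part of expression level in these shares was not tested, and counts of antisense genes cannot be told apart from those of their partner genes where the libraries were not stranded. Calls were spread over all autosomes and the X chromosome, with between 12.04% and 17.98% of the tested genes of a chromosome called lower. The exonic length was 3928 bases at the median for genes called lower, 4206 for genes called higher and 4285 for all tested genes.

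The promoters of strongly responding genes are shown because genes with similar functions fell together. RefSeq promoters (GRCm38.p6, from 250 bases before to 50 bases after the outermost start) were matched by symbol for 10439 of the 14060 tested genes (74.2%). Capitals mark matches on either strand to the E-box CAGCTG, a binding motif of MYOD and myogenin, to the MEF2 motif and to the TATA box TATAAA, which overlaps the MEF2 motif in Myh8. Each motif was searched as a fixed pattern, and variants of it were not counted. The printed Myog sequence holds such variants of the E-box and of the MEF2 motif. No match therefore does not mean that a promoter lacks an E-box or a MEF2 site. Positions of the leftmost base count the start as 1 and the base before it as -1.
Cacna1s (chr1:136052561-136052860, plus strand, E-box at -123):
Cacna1s: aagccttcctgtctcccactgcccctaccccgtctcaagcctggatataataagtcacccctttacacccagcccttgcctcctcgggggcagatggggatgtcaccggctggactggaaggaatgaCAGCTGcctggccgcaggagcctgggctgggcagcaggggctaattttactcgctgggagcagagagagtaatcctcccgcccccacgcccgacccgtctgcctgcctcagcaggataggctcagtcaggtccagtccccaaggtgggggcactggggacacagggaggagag
Myh8 (chr11:67276874-67277173, plus strand, MEF2 motif at -99 and TATA box at -96):
Myh8: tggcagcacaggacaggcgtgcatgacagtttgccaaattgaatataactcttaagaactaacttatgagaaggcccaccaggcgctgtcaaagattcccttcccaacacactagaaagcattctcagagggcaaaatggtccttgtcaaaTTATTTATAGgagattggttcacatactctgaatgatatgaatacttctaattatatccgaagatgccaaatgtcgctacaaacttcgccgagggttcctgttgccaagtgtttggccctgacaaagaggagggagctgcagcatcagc
Mybph (chr1:134193198-134193497, plus strand, E-box at -79 and TATA box at -39):
Mybph: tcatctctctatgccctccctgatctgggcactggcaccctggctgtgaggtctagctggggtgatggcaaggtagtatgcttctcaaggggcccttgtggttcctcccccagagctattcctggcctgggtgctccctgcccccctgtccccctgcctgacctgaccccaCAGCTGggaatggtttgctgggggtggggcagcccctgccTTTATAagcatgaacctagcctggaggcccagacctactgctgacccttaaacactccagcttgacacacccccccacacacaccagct
Casq2 (chr3:102086165-102086464, plus strand, MEF2 motif at -69):
Casq2: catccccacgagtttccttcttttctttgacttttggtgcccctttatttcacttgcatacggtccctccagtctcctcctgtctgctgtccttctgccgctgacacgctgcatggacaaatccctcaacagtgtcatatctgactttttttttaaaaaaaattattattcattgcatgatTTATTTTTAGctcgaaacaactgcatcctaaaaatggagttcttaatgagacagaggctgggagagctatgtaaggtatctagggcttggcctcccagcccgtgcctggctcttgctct
Myog (chr1:134289754-134290053, plus strand, no match to these motifs):
Myog: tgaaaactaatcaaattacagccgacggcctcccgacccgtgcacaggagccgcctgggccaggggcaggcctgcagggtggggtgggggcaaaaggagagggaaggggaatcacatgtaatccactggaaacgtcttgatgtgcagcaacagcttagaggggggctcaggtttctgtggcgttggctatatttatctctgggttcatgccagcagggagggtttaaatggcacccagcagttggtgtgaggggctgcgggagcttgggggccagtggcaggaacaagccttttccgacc
Cd34 (chr1:194938571-194938870, plus strand, no match to these motifs):
Cd34: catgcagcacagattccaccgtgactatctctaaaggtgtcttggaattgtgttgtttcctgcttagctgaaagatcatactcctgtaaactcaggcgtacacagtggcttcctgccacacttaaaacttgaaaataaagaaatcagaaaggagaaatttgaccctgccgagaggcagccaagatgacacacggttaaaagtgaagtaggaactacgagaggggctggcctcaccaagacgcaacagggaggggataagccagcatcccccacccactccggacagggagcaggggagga

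The E-box CAGCTG was found in 1593 of the 10439 promoters (15.3%), in 344 of 1398 promoters of genes called lower (24.6%), in 104 of 694 of genes called higher (15.0%), and in 19 of 49 promoters of the contractile and coupling lists described next (38.8%). The MEF2 motif was found in 1.37% of all promoters, in 3.93% of those called lower, in 1.15% of those called higher and in 10 of the 49 (20.4%). The CCAAT box, searched as CCAAT, was found in 38.9% of all promoters and in 35 of 50 promoters of the mitosis and DNA replication lists (70.0%). Its share was 38.1% among promoters of genes called lower, 34.7% among those called higher and 17 of the 49 (34.7%). A match is a sequence of letters and was not shown to be bound, and promoters with only a variant of a motif count as having none.

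The sarcomere and calcium release genes fell furthest. Of 19 tested genes of the thick filament and M-band, all 19 were called lower, against 14.1% of all tested genes, with a median log2 fold change of -6.58. The values of this list held 0.953% and 1.03% of the DMSO totals and 0.050% and 0.041% of the NT totals. Of 28 genes of the thin filament and Z-disc 23 were called lower (median -3.61), and of 22 genes of excitation-contraction coupling 18 (median -3.59). The median over all tested genes was -0.02. The counts of these 3 lists stayed within 1.5 times of these numbers in every alternative and with each library left out.

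Cacna1s (ENSMUSG00000026407, GRCm38 chr1:136052750-136119822), encoding the voltage sensor of the muscle calcium channel, had the largest decrease of all genes, with values of 1774 and 1834 in the DMSO libraries against 0 and 1 in the NT libraries. The change on the log2 scale was -10.32 ± 0.34 (SE, n = 2 per group, adjusted p = 2.65e-05 by limma with Benjamini-Hochberg adjustment), and the ratio of reads was 4415 with an exact counting interval of 792 to 174414. Myh1, encoding a fast adult myosin heavy chain, had 2998 and 3406 against 6 and 6 (-8.83 ± 0.09, adjusted p = 5.67e-06 by limma). In both genes the 2 groups were separated by a wide gap.

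Myh8, encoding the perinatal myosin heavy chain, had 2268 and 2450 with DMSO and 3 and 0 with NT, Mybph, encoding a myosin-binding protein, had 1198 and 1344 against 5 and 0, and Igfn1, encoding a Z-disc protein, had 1704 and 1848 against 3 and 0. Their log2 fold changes were -10.20, -9.02 and -9.79. These 3 genes, in which the NT libraries differ on the log scale, lost the call when either DMSO library was left out, at adjusted p-values by limma of between 0.0526 and 0.0796 with log2 fold changes between -8.94 and -10.26. Myh7, encoding the slow myosin heavy chain, had 688 and 708 against 1 and 0 (-8.95), and Frem2, encoding a matrix protein of basement membranes, had 901 and 891 against 0 and 1 (-9.31). Myosin heavy chain genes are close copies of each other, and reads aligning to several regions had been left out by the authors, so their values cover the unique parts.

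Casq2, encoding a calcium-storing calsequestrin, had 1297 and 1409 with DMSO and 4 and 1 with NT (-8.74), Xirp2, encoding an actin-binding Z-disc protein, had 561 and 462 against 0 and 1 (-8.49), and Tcap, encoding the titin cap telethonin, had 314 and 323 against 1 and 0 (-7.82). The giant proteins of the sarcomere kept more of their transcripts. Ttn, encoding titin, had 18751 and 20645 against 1912 and 1592 (-3.49 ± 0.10), and Neb, encoding nebulin, had 9244 and 10073 against 928 and 765 (-3.52 ± 0.10), both at an adjusted p of 2.19e-05 by limma. Per kilobase of exon the mean of Ttn was 169 with DMSO and 15.0 with NT.

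**Figure D2:**
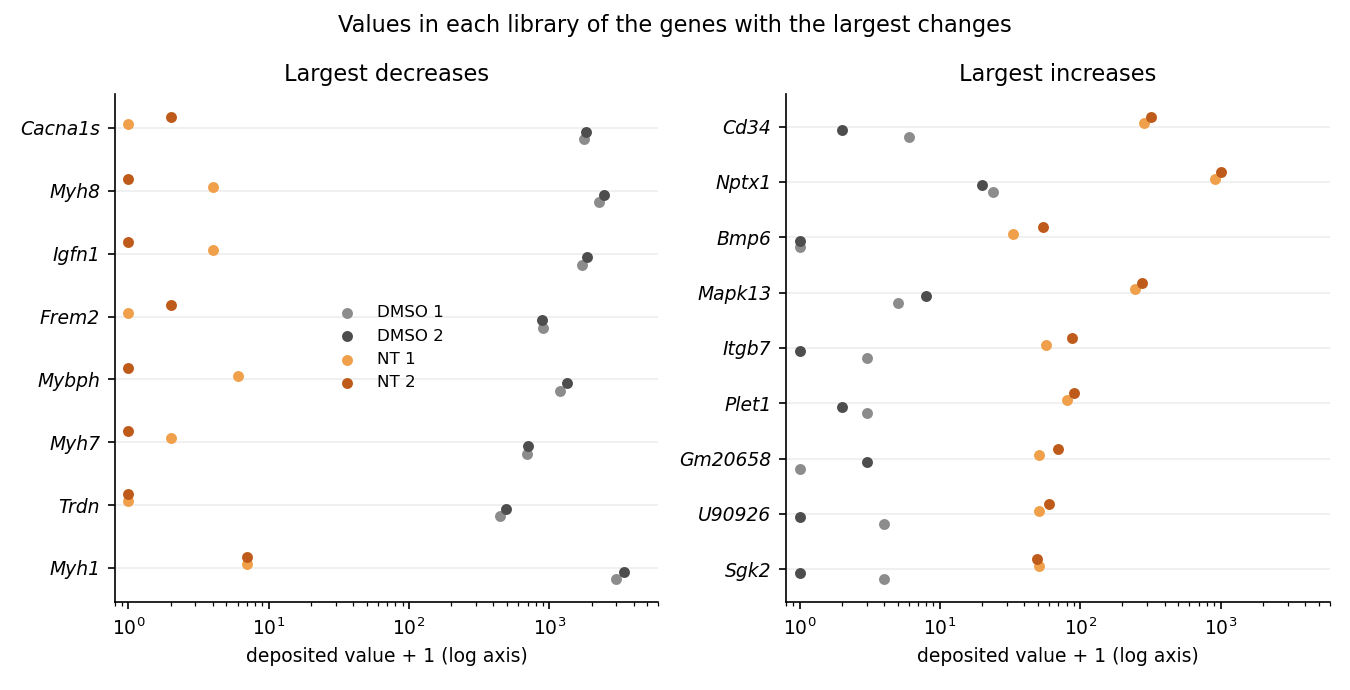
Deposited value + 1 (log axis) of 8 of the 10 genes with the largest decreases and 9 of the 10 with the largest increases, with 1 point per library. Genes were chosen with both NT libraries on the same side of both DMSO libraries, and a value of 0 is drawn at 1.

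The enzymes and membrane proteins of mature muscle fibres moved in the same direction. Of 17 genes of muscle energy metabolism 14 were called lower (median -3.17), among them Ckm, encoding the creatine kinase of muscle, with 545 and 520 against 0 and 1, Mb, encoding myoglobin, with 507 and 557 against 2 and 2, and Cox8b, a respiratory chain subunit of muscle, with 80 and 79 against 0 and 0. Of 17 genes of the dystrophin complex and sarcolemma 11 were called lower (median -1.91), with Cav3, encoding the caveolin of muscle, at 441 and 453 against 18 and 11. Dtnb, encoding a dystrobrevin, was the one called higher, at 90 and 93 against 220 and 241 (1.32 ± 0.09). The background shares for all tested genes were 14.1% lower and 6.96% higher.

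Calls among genes of fusion and of the neuromuscular synapse were all lower. Of 16 tested fusion genes 4 were called lower (25% against 14.1% of all tested genes, median -0.57). They were led by the fusion proteins of the myoblast membrane. Mymk, encoding myomaker, had 956 and 1043 with DMSO and 47 and 40 with NT (-4.49 ± 0.10, adjusted p = 1.57e-05 by limma), and Mymx, encoding myomixer, had 403 and 441 against 6 and 2 (-6.53 ± 0.41). Mymx lost the call without DMSO replicate 1 (adjusted p = 0.0505 by limma) or 2 (0.0532), and without DMSO replicate 2 the list had 2 lower calls. Of 11 synapse genes 5 were called lower (45.5%, median -0.94), among them Chrng, encoding the embryonic subunit of the acetylcholine receptor, at 1524 and 1637 against 212 and 224 (-2.85 ± 0.06), and Colq, encoding the collagen tail of acetylcholinesterase, at 22 and 15 against 1 and 1.

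Among myogenic transcription factors Mef2c, Myog and Myf6 fell, while Myod1, Myf5 and Pax7 stayed under 2-fold. Mef2c, which drives muscle gene expression together with myogenin, had values of 1927 and 1930 with DMSO and 12 and 11 with NT (-7.27 ± 0.08, adjusted p = 5.67e-06 by limma). Myog, encoding myogenin, had 1157 and 1335 against 31 and 28 (-5.35 ± 0.10, adjusted p = 1.24e-05 by limma), and Myf6, encoding MRF4, had 143 and 121 against 15 and 12 (-3.20 ± 0.19). In all 3 the groups were far apart.

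Myod1, the determination factor of activated MuSCs, had 1324 and 1444 with DMSO and 1192 and 1100 with NT (-0.27 ± 0.06, adjusted p = 0.0149 by limma), and Myf5, a factor of the same family, had 506 and 466 against 408 and 400 (-0.26 ± 0.06, adjusted p = 0.0115 by limma). Pax7 went the other way by 0.76 ± 0.11 on the log2 scale (adjusted p = 0.0023 by limma), with values of 857 and 1070 against 1653 and 1599. These 3 genes did not overlap between the groups and stayed below the 2-fold threshold. Of all tested genes, 38.4% did not overlap in the higher and 42.5% in the lower direction. Eya2, with 179 and 183 against 28 and 21 (-2.85), and Eya4, with 1313 and 1317 against 447 and 387 (-1.66), were also called lower. Mef2a (-0.91) and Mef2d (-0.68) were lower by less than 2-fold. Eya2, Eya4, Mef2a and Mef2d are named after their values were seen. Of the 17 tested factors 5 were called lower (29.4%) and 1 higher (5.88%), against 14.1% and 6.96% of all tested genes (median -0.27). The higher one was Six2, a homeobox factor, at 64 and 68 against 129 and 148 (1.06), which was no longer called without DMSO replicate 1 (1.01, adjusted p = 0.0557 by limma), DMSO replicate 2 (1.10, adjusted p = 0.0537) or NT replicate 2 (0.96).

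**Figure D3:**
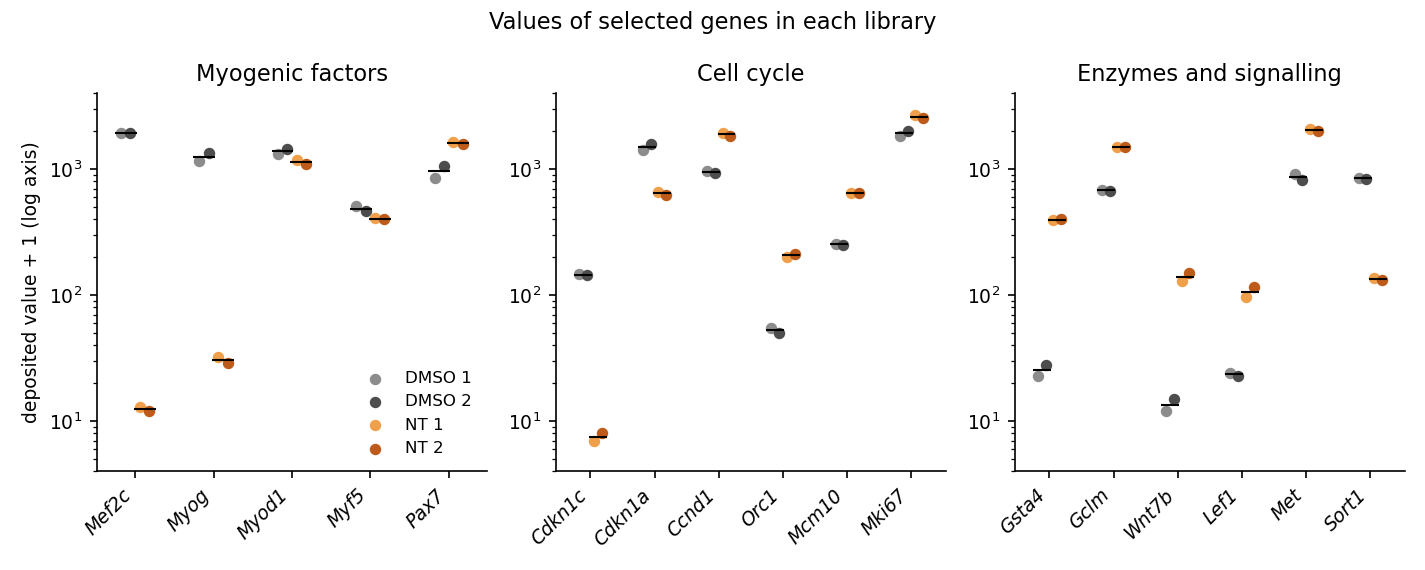
Deposited value + 1 (log axis) of 17 genes in each library, with 1 point per library and a black line at the mean of each group of 2. Mef2c and Myog are called lower with NT at log2 fold changes of -7.27 and -5.35, whereas Myod1, Myf5 and Pax7 differ by less than 2-fold, and the cell cycle inhibitors fall where Orc1 and Mcm10 rise.

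Genes of MuSC surface proteins and quiescence were called in both directions, 4 higher and 4 lower of 18 tested (22.2% each, against 6.96% higher and 14.1% lower of all tested genes, median -0.34). Cd34 (ENSMUSG00000016494, GRCm38 chr1:194938819-194961279), encoding a sialomucin of MuSCs and of blood and vessel progenitors, had the largest increase of all genes. Its values were 5 and 1 with DMSO and 286 and 318 with NT, a log2 fold change of 6.45 ± 0.52 (adjusted p = 0.000356 by limma). Endothelial cells express Cd34 and Tek too. The endothelial markers Kdr and Pecam1 were higher in every NT than in every DMSO library, as were 38.4% of all tested genes. Their values were at most 26, and the part of endothelial cells in these increases was not tested. The DMSO values of Cd34 are low and differ on the log scale, and the call was lost without NT replicate 1 (6.52, adjusted p = 0.0541 by limma), without NT replicate 2 (6.37, adjusted p = 0.0556) and with the NT pair counted as 1 sample (adjusted p = 0.0557).

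Tek, encoding the angiopoietin receptor TIE2, had 2 and 1 with DMSO and 42 and 70 with NT (4.50 ± 0.38, adjusted p = 0.000413 by limma), and Met, encoding the receptor of hepatocyte growth factor, had 917 and 817 against 2080 and 2017 (1.24 ± 0.06, adjusted p = 9.43e-05 by limma). Among the members called lower, Col5a3, encoding a collagen V chain, had 929 and 945 against 163 and 133, and Fgfr4, encoding a fibroblast growth factor receptor, had 934 and 1060 against 402 and 346. Calcr, encoding the calcitonin receptor of quiescent MuSCs, had values of 1 and 0 with DMSO and 3 and 3 with NT and was below the filter. The list gave 2 higher calls with the NT pair counted as 1 sample or with either NT replicate left out.

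Notch keeps MuSCs undifferentiated through HEY and HES repressors. Of 18 tested Notch pathway genes 3 were called lower (16.7%, median -0.38). Heyl, encoding a HEY repressor, had 382 and 566 with DMSO and 6 and 9 with NT (-5.80 ± 0.27, adjusted p = 6.64e-05 by limma), Hey1 had 279 and 353 against 67 and 77 (-2.11 ± 0.14), and the receptor gene Notch3 had 1397 and 1773 against 409 and 353 (-2.05 ± 0.13). The groups did not overlap in any of the 3 genes, as in 42.5% of all tested genes in the lower direction. The share of calls in the whole list was close to the background of 14.1%.

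Cell cycle genes were higher with NT, mostly by less than 2-fold. Of 33 genes of DNA replication 5 were called higher (15.2% against 6.96% of all genes), and 31 were higher at an adjusted p of at most 0.05 (median log2 fold change 0.77). Of 28 mitosis genes 1 was called higher, and all 28 were higher at that adjusted p (median 0.62). With libraries scaled to equal totals, which moved the median of all genes from -0.02 to 0.09, 10 replication and 4 mitosis genes were called higher. The lists held 0.271% and 0.271% of the totals (replication) and 0.349% and 0.351% (mitosis) with DMSO, and 0.481% and 0.467% and 0.569% and 0.561% with NT.

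Orc1, encoding a subunit of the origin recognition complex, had values of 54 and 49 with DMSO and 201 and 211 with NT (1.98 ± 0.11, adjusted p = 0.000105 by limma), Cdc6, a loader of the replicative helicase, had 207 and 188 against 528 and 511 (1.39 ± 0.07), and Mcm10, a replication initiation factor, had 253 and 251 against 647 and 645 (1.35 ± 0.05). Ttk, a kinase of the spindle checkpoint, had 170 and 156 against 381 and 373 (1.21 ± 0.07), and was the mitosis gene called without rescaling. Mki67, the proliferation marker, had 1850 and 2002 against 2688 and 2538 (0.44 ± 0.06, adjusted p = 0.00177 by limma), under 2-fold. Without DMSO replicate 1 or 2 the mitosis list had 2 higher calls in each case.

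Regulators of the G1 phase had few calls, in shares above those of all tested genes. Of 18 genes of G1 cyclins and E2F factors 3 were called higher (16.7% against 6.96% of all tested genes). E2f5 had 59 and 57 against 135 and 144 (1.25), and Ccne2, encoding cyclin E2, had 215 and 174 against 448 and 401 (1.13). Ccnd1, encoding cyclin D1, had 964 and 926 against 1930 and 1854 (1.00). Ccnd1 lies at the threshold and dropped below it without DMSO replicate 2 or NT replicate 1 (0.97 each), and Ccne2 lost the call without DMSO replicate 2 (0.98), NT replicate 1 (adjusted p = 0.067 by limma) or NT replicate 2 (0.0577), so that without DMSO replicate 2 the list had 1 higher call. Ccnd3, encoding cyclin D3, had 1220 and 1354 against 681 and 613 (-0.99, adjusted p = 0.000299 by limma), just under 2-fold, and the list had 1 lower call without DMSO replicate 1 or NT replicate 1. Of 10 inhibitors and pocket proteins 3 were called lower (30% against 14.1% of all tested genes). Cdkn1c, encoding p57, had 145 and 143 with DMSO and 6 and 7 with NT (-4.28 ± 0.19, adjusted p = 5.44e-05 by limma), Rb1, encoding the retinoblastoma protein, had 1258 and 1298 against 322 and 348 (-1.93 ± 0.05), and Cdkn1a, encoding p21, had 1431 and 1594 against 664 and 626 (-1.23 ± 0.07). Rbl1, a pocket protein gene named after its values were seen, as was Ccnd3, had 348 and 315 against 628 and 604 (0.89), under 2-fold.

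**Figure D4:**
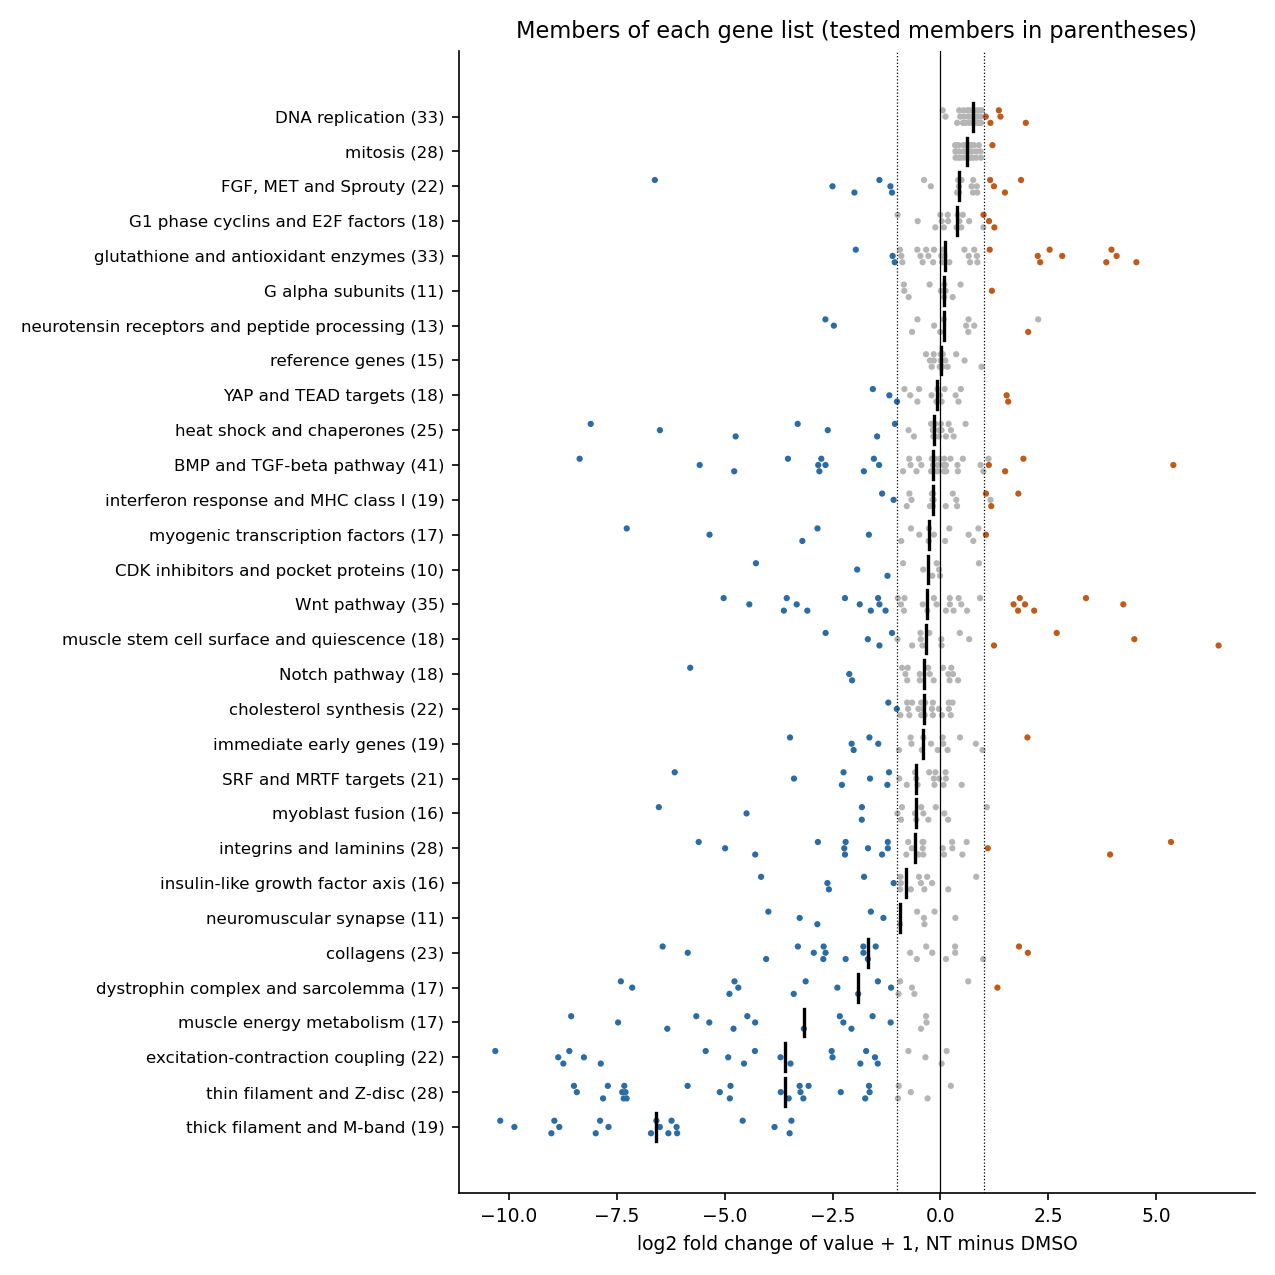
Log2 fold change of value + 1 (NT minus DMSO) of every tested member of 30 gene lists, with members called higher in orange, called lower in blue and not called in grey, a black bar at the median of the list and dotted lines at 2-fold. The lists are ordered by median, from DNA replication at 0.77 to the thick filament at -6.58, and the 15 reference genes have a median of 0.01.

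The receptor side of NT itself was partly measured. Nts, Ntsr1 and Ntsr2, encoding neurotensin and its G protein-coupled receptors, were not analysed here. Sort1, encoding sortilin, had values of 851 and 841 with DMSO and 135 and 130 with NT (-2.67 ± 0.05, adjusted p = 1.34e-05 by limma). Of 13 genes of neurotensin receptors and peptide processing 2 were called lower (15.4%) and 1 higher (7.69%), about the shares of all tested genes (14.1% and 6.96%), the latter being Pcsk6, which encodes a proprotein convertase, at 59 and 49 against 218 and 229 (2.03 ± 0.12). The second called lower, the convertase gene Pcsk2, had 71 and 74 against 10 and 15 (-2.47) and lost the call without DMSO replicate 1 (adjusted p = 0.059 by limma) or 2 (0.0628), which leaves 1 lower call in the list in each case.

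The study concerns signalling from G12 and G13 to the GTPase RHOA. Gna12 had values of 388 and 399 with DMSO and 541 and 547 with NT (0.47 ± 0.05, adjusted p = 0.00065 by limma), and Gna13 had 660 and 603 against 781 and 756 (0.28 ± 0.06, adjusted p = 0.00895 by limma), both higher and under 2-fold. Rhoa had 629 and 655 against 604 and 587 (-0.11 ± 0.05, adjusted p = 0.0909 by limma), which was not distinguished from the spread, and its sign turned with libraries scaled to equal totals (0.0048). Transcript levels of these genes do not measure the activity of the proteins. Among 11 G alpha genes 1 was called higher (9.09%, near the 6.96% of all tested genes) and 0 lower (14.1% of all). The called gene was Gnao1, encoding Go, at 110 and 120 against 262 and 266 (1.19 ± 0.08).

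Among targets of transcription factors that respond to this pathway, the shares of calls differed by list. Of 21 SRF and MRTF targets, genes that respond to actin assembly, 7 were called lower (33.3% against 14.1%, median -0.56), with Acta2, encoding smooth muscle actin, at 1216 and 1382 against 281 and 251 (-2.28 ± 0.09), and the list had 4 lower calls without DMSO replicate 1 or 2. Of 18 YAP and TEAD targets 2 were called higher (11.1%) and 3 lower (16.7%), near the 6.96% and 14.1% of all tested genes (median -0.08), and the higher calls were lost with either NT replicate left out. Those 2 were Crim1, a transmembrane protein gene, with 151 and 89 against 363 and 331 (without NT replicate 1 or 2: adjusted p = 0.125 and 0.113 by limma) and Nt5e, encoding the ectonucleotidase CD73, with 27 and 34 against 83 and 97 (0.0502 and 0.0582).

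Secreted regulators of muscle growth were among the larger decreases. Of 41 genes of the BMP and TGF-beta pathway 11 were called lower and 4 higher (26.8% and 9.76%, against 14.1% and 6.96% of all tested genes, median -0.16), so that the higher share is near that background. Mstn, encoding myostatin, had values of 479 and 451 with DMSO and 1 and 0 with NT (-8.36 ± 0.36, adjusted p = 5.54e-05 by limma), Fst, encoding its inhibitor follistatin, had 684 and 770 against 27 and 24 (-4.78 ± 0.11), and Chrd, encoding the BMP antagonist chordin, had 222 and 286 against 3 and 6 (-5.58 ± 0.32). Bmp6, described above, was the member with the largest increase (5.40 ± 0.36, adjusted p = 0.000198 by limma). The higher calls of this list numbered 7 with libraries scaled to equal totals, and 1 and 2 without NT replicate 1 and 2. Of 16 genes of the insulin-like growth factor axis 5 were called lower (31.2%, median -0.80), with Igf2 at 630 and 710 against 46 and 29 (-4.16 ± 0.22) and Igfbp7, a binding protein gene, at 199 and 192 against 32 and 30 (-2.62 ± 0.12), and without DMSO replicate 1 or NT replicate 1 the list had 2 and 3 lower calls.

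The Wnt list was called in both directions, with 7 higher and 12 lower (34.3%) of 35, against 6.96% and 14.1% of all tested genes (median -0.30). Wnt7b, a ligand gene, had 11 and 14 with DMSO and 129 and 148 with NT (3.37 ± 0.19, adjusted p = 0.000125 by limma), Lef1, encoding a nuclear effector of beta-catenin, had 23 and 22 against 95 and 116 (2.17 ± 0.17), and Rspo1, encoding the Wnt agonist R-spondin 1, had 0 and 0 against 16 and 20 (at least 11.3-fold higher). Wnt4, another ligand gene, had 115 and 94 against 8 and 7 (-3.63 ± 0.21). The number of higher calls fell to 3 without NT replicate 1 or 2 and with the NT pair counted as 1 sample, to 4 without DMSO replicate 1 and to 2 at a mean of at least 20.

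Of 22 genes of FGF, MET and Sprouty signalling 4 were called higher and 6 lower (18.2% and 27.3%). The shares of all tested genes were 6.96% and 14.1%, and the median of the list was 0.43. Etv4, a transcription factor gene that responds to FGF signals, had 190 and 187 with DMSO and 534 and 533 with NT (1.496 ± 0.05, adjusted p = 2.76e-05 by limma), whereas Fgf21, encoding a secreted metabolic hormone, had 433 and 400 against 2 and 5 (-6.62 ± 0.35). Without DMSO replicate 2 the list had 3 lower calls. Of 19 immediate early genes 5 were called lower (26.3%) and 1 higher (5.26%), against 14.1% and 6.96% of all tested genes, with Atf3, a stress-induced factor, at 338 and 230 against 23 and 25 (-3.49 ± 0.21), Fos at 195 and 231 against 49 and 55 (-2.01 ± 0.13), and Fosb, of the same family, at 19 and 25 against 86 and 97 (2.02 ± 0.20). In scalings to equal totals or upper quartiles the list had 2 higher calls, and without DMSO replicate 1 also 2.

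Matrix genes were mostly lower. Of 23 collagen genes 13 were called lower (56.5% against 14.1%, median -1.68), with Col25a1, a transmembrane collagen gene of muscle, at 793 and 852 against 9 and 8 (-6.44 ± 0.12, adjusted p = 1.24e-05 by limma) and Col1a1, encoding a collagen I chain, at 148 and 146 against 8 and 8 (-4.04 ± 0.17). Collagen I is also made by fibroblasts. Their marker list summed to 876 and 952 with DMSO and 389 and 427 with NT, mostly through Gsn. In that list Gsn, Col15a1 and Dcn were called lower, while Pdgfra and Ly6a had higher values with NT. The part of fibroblasts in this result was not tested. Col27a1, a fibrillar collagen gene, rose from 34 and 39 to 140 and 164 (2.03 ± 0.15). The second gene called higher, Col14a1, had 1 and 5 against 14 and 9 (1.82, adjusted p = 0.0442 by limma) and lost the call with any 1 library left out (adjusted p from 0.0623 to 0.312), and with all 4 libraries at pseudocount 0.5 (0.0524), without the filter (0.12), with the replicate block (0.0535) or without the trend (0.0938). Of 28 integrin and laminin genes 11 were called lower and 3 higher (39.3% and 10.7%, median -0.59), among them Itga4 at 541 and 487 against 13 and 7 (-5.60 ± 0.28) and Itga2 at 4 and 2 against 47 and 72 (3.93 ± 0.37). Without DMSO replicate 1 or 2 the integrin list had 7 lower calls in each case.

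Enzymes of glutathione use and redox defence were called more often higher than lower. Of 33 tested genes 9 were called higher (27.3% against 6.96%) and 3 lower (9.09% against 14.1%), with a median of 0.10. The list held 0.188% and 0.189% of the totals with DMSO and 0.326% and 0.332% with NT. Gsta4, encoding a glutathione transferase, had 22 and 27 with DMSO and 392 and 399 with NT (3.97 ± 0.13, adjusted p = 2.65e-05 by limma), and Gclm, encoding the regulatory subunit of the first enzyme of glutathione synthesis, had 682 and 676 against 1507 and 1496 (1.14 ± 0.04, adjusted p = 2.61e-05 by limma). Of the further members called higher, the quinone reductase gene Nqo1 (86 and 92 against 532 and 507) and the sulfiredoxin gene Srxn1 (171 and 158 against 790 and 853) are named after their values were seen. Gsta2 (0 and 0 against 16 and 31) and Gsta1 (0 and 0 against 11 and 23) are near-identical copies, so their reads may be divided uncertainly between them. Both lost the call without DMSO replicate 1 (adjusted p = 0.0541 and 0.0653 by limma) or 2 (0.0558 and 0.0672). At most 1 of the 3 lower calls was left with any 1 library left out.

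**Figure D5:**
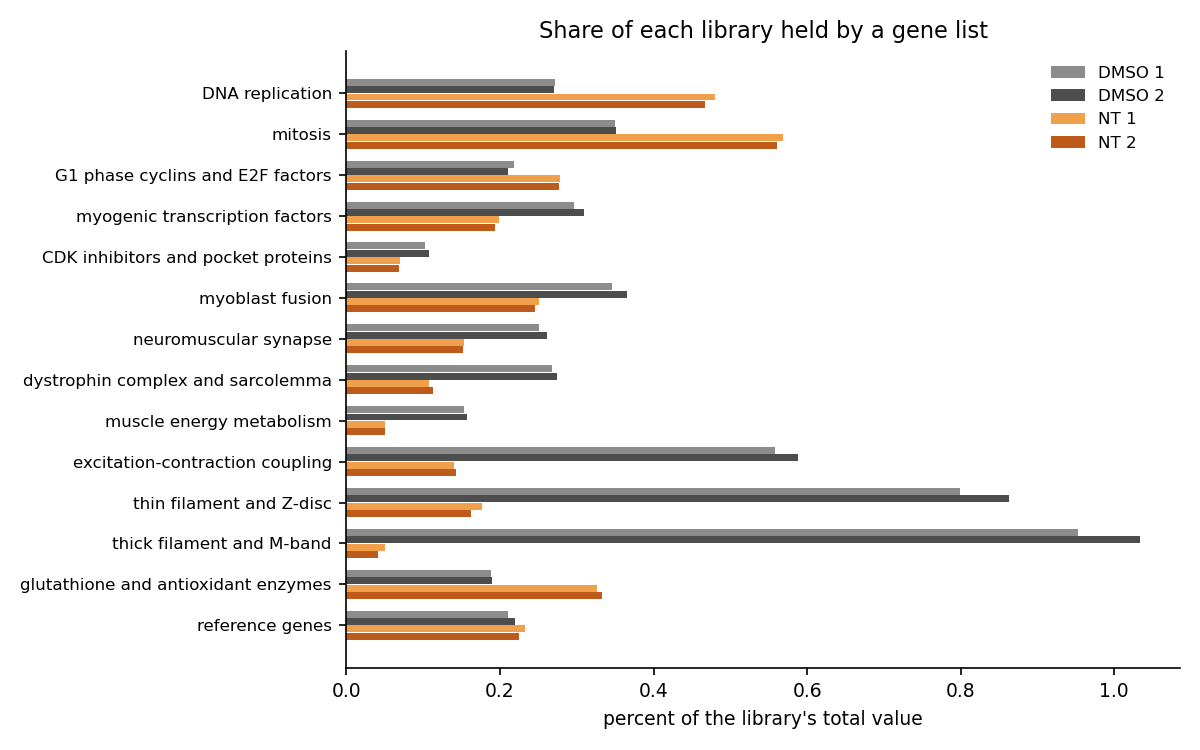
Percent of each library's total value held by 14 gene lists, with 1 bar per library and axis from 0. The thick filament list falls from 0.953% and 1.03% with DMSO to 0.050% and 0.041% with NT, replication, mitosis and glutathione lists take a larger share with NT, and the reference genes hold between 0.210% and 0.233% in the 4 libraries.

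Of 25 genes of heat shock and chaperones 7 were called lower (28% against 14.1% of all tested genes) and the median was -0.15. Unc45b, encoding a chaperone of myosin, had values of 1228 and 1296 with DMSO and 6 and 2 with NT (-8.11 ± 0.39, adjusted p = 7.77e-05 by limma), and Hspb7, encoding a small heat shock protein of muscle, had 562 and 612 against 6 and 5 (-6.50 ± 0.15). Most of the 22 genes of cholesterol synthesis were lower by less than 2-fold, with a median of -0.39. At an adjusted p of at most 0.05 by limma 14 were lower and 3 higher, against 32.4% and 28% of all tested genes. Past 2-fold 2 of the 22 were called lower (9.09%). Of 19 interferon and MHC class I genes 3 were called higher (15.8%) and 2 lower (10.5%). The lower shares of the cholesterol and interferon lists are under the 14.1% of all tested genes, and 6.96% of all were higher. These smaller numbers were not stable, since at most 1 lower call was left in either list without DMSO replicate 1, DMSO replicate 2 or NT replicate 2.

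Other increases belonged to genes of varied function. Nptx1, encoding a secreted pentraxin of neurons, had values of 23 and 19 with DMSO and 915 and 1007 with NT (5.45 ± 0.12, adjusted p = 1.57e-05 by limma). Mapk13, encoding the p38 delta kinase, had 4 and 7 against 245 and 275 (5.36 ± 0.27), and Plet1, an epithelial progenitor marker, had 2 and 1 against 80 and 90 (5.13 ± 0.30). Itgb7, an integrin gene of leukocytes (2 and 0 against 56 and 86), Gm20658 (0 and 2 against 50 and 68), U90926 (3 and 0 against 50 and 59) and Sgk2, a kinase gene (3 and 0 against 50 and 48), were also among the 10 largest. The last 4 genes lost the call without NT replicate 1 or 2, with adjusted p-values by limma from 0.0632 to 0.104. Among the genes called higher with the highest mean values were Abcc1, encoding a drug and glutathione conjugate exporter, at 854 and 827 against 1811 and 1863 (1.13), Met and Gclm.

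Terms for housekeeping processes held few calls. Of the KEGG terms given in the deposited table, Ribosome had 1 of 126 tested genes called higher, Spliceosome 2 of 126 called lower, and Ubiquitin mediated proteolysis 3 of 130 higher and 7 lower, against 7.03% higher and 13.1% lower of the 4595 tested genes with any term. Oxidative phosphorylation had 7 of 108 called lower (6.48%) and a median of -0.31. Terms with larger shares included Hypertrophic cardiomyopathy, whose members include sarcomere genes, with 31 of 71 lower (43.7%), Cardiac muscle contraction with 20 of 59 lower (33.9%), Cytokine-cytokine receptor interaction with 31 of 104 lower (29.8%) and 14 higher, Calcium signaling with 27 of 110 lower (24.5%) and 13 higher, Axon guidance with 33 of 150 lower and 17 higher, and Glutathione metabolism with 8 of 43 higher. Hedgehog signaling had 4 of 40 called higher.

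The 15 reference genes had a median log2 fold change of 0.01, and 7 of them differed at an adjusted p of at most 0.05 by limma, 4 higher and 3 lower, all under 2-fold, and 1 was called higher with libraries scaled to equal totals. The largest change was that of Gusb, at 288 and 297 against 556 and 579 (0.95), named after its values were seen. Large and abundant transcripts that did not pass the test were Flna, encoding filamin A, with 4168 and 4530 against 4856 and 4639 (0.13, adjusted p = 0.109 by limma), Ahnak with 3956 and 4014 against 4056 and 4007 (0.02, adjusted p = 0.737 by limma), and Dync1h1, the dynein heavy chain gene, with 3585 and 3700 against 3753 and 3700 (0.03, adjusted p = 0.523 by limma). Next to the fold threshold, Akt2 with 1063 and 1092 against 545 and 530 was just inside, and Eps8 with 325 and 312 against 633 and 642 just outside.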

How the data were processed

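The series holds RNA-seq of MuSCs cultured with DMSO, NT or a further ligand. Per the labels, about 4 ng of RNA went into SMART-Seq HT libraries that were sequenced as single-end reads of 75 bases, whereas the methods of the paper describe a stranded kit, so strandedness is uncertain. The submitters' processing notes name FastQC, Trimmomatic 0.38, STAR 2.7.7a, featureCounts 1.6.5, DESeq2 1.30.0 and mm10. According to the methods, the authors counted exonic reads for each gene and dropped those shared between genes or with more than one alignment. The deposited values are a read signal, whole numbers per gene and library that were scaled by the authors by 1 factor per library. The factor was fitted here to how often each value occurs. In the second DMSO library 38 of the first 300 whole numbers cannot be reached with the fitted factor, and 0 genes had them. The removal of duplicate reads is not given in the sources used here. A total of 2 per-sample columns, of the further ligand, were not used.

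Values were used without rescaling, with pseudocount 1, after a filter at a mean of at least 5 that removed 4883 genes. A count model needs raw reads, so limma 3.58.1 (lmFit and eBayes with trend, R 4.3.3) was run on log2(value + 1) with Benjamini-Hochberg adjustment over 14060 genes. It had 2 residual and 3.29 prior degrees of freedom, and the SE was 0.09 at the median. Called genes had an adjusted p of at most 0.05 and a log2 fold change of at least 1 in size, the thresholds of the study. The groups came from the labels. On simulated data, 197 of 200 changed genes (98.5%) were recovered among 13870 tested, with 0 false calls. The changed genes were not among those with the lowest values and changed by more than 2-fold. All others were left unchanged, with the same dispersion for every gene, whereas 60.4% of the tested genes differed in the data. The simulation therefore cannot speak for calls near 2-fold or at low values. Counting intervals are exact at 95% and cover counting error only. Exonic lengths came from GENCODE M21, matched by identifier for 18920 genes. Symbols, positions and KEGG terms came from the deposited table. Python 3.11.15 with pandas 2.3.3 and matplotlib 3.10.9 made tables and plots.

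The genes named are the 10 largest changes in each direction, the 3 largest called members of each list in each direction, a fixed set (Nts, Ntsr1, Ntsr2, Sort1, Gna12, Gna13, Rhoa, Pax7, Myf5, Myod1, Myog, Calcr, Cd34, Mki67), those next to the fold threshold, and those with the highest means. Not every gene of the rule is described, and some genes and lists are not reported here. The lists, written from general knowledge, and the genes were chosen with earlier results of these data known. Lists are described by counts and medians without a test. The alternatives covered the scaling (library totals, upper quartile), pseudocounts of 0.5 and 5, the filter, the fold threshold, no trend, voom weights on recovered reads, a replicate block, the NT pair averaged as 1 sample, and each library left out.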

Additional observations from a re-analysis of the deposited data

How the results depend on the processing

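The 979 genes called higher and 1982 called lower came to between 455 and 834 higher and between 1244 and 1568 lower with 1 library left out, where the lone library of a group is assumed to vary like the other group. With the NT pair averaged as 1 sample, 464 were higher and 1524 lower, of which 462 and 1523 were the same genes as before. Without a fold threshold 3932 were higher and 4559 lower. Library totals gave 1219 and 1829, and moved the median of all genes from -0.02 to 0.09. The other alternatives (upper quartile, both pseudocounts, the 2 filters, no trend, voom, the block) gave between 675 and 1152 higher and between 1372 and 2283 lower. The replicate block gave 968 and 1967. Same-numbered libraries did not deviate together (correlation -0.0642 over 2 pairs), and nothing in the labels pairs them, so the numbers are only names. Of 172 named genes, 57 lost the call in at least 1 alternative, 20 of them in one that kept all 4 libraries as separate samples. Rhoa (-0.11, not called) turned to 0.0048 with library totals, and was the 1 named gene that turned direction. With 2 libraries per group and between 4015164 and 5396233 reads on genes, changes of genes with values under 20 rest on few reads.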
